A study of Mus musculus with 6 samples.

Results

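Imprinted genes are expressed mainly from the chromosome inherited from a single parent. The genes described here are 38 mouse imprinted genes, listed by symbol in 17 clusters and read with the parental allele that is usually expressed. Of these, 37 had a row among the 35275 rows of the deposited expression table, and 18 were expressed highly enough to be tested, of 10882 genes tested in all. No row was paired with Peg13, a noncoding RNA gene, which was not analysed here.

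The measurements are RNA sequencing of the 3T3 line, an immortalized mouse fibroblast line. A group of 3 libraries came from cells carrying a control construct (Ctrl replicates 1, 2 and 3). The other 3 came from cells carrying a construct that overexpresses NNMT, named here NNMT replicate 2, NNMT replicate 3 and the unnumbered NNMT library. Before RNA was taken, both groups grew for 48 h with methionine held at 10 µM and with 10% dialyzed serum in the medium. NNMT is nicotinamide N-methyltransferase, an enzyme that moves a methyl group from S-adenosylmethionine to nicotinamide. The series compares the groups to find genes that respond to NNMT. The labels call the samples biological replicates. They do not say whether replicates came from separate transductions, so the 2 constructs and the 2 cell populations that carry them cannot be told apart.

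The values are read as FPKM, reads or fragments scaled to transcript length and library size, so that levels of different genes may be set side by side. Recovered depth was 31622257 to 39982087 reads per library. The mouse Nnmt gene was at 7.60, 5.25 and 6.51 FPKM in the control libraries and at 15.7, 15.0 and 18.3 FPKM in the NNMT libraries, with no overlap. Fibroblast markers summed to between 6533 and 6957 FPKM in control libraries and to between 9061 and 10742 FPKM in NNMT libraries, with all 8 markers above 0. Markers of other cell types summed to far less. The epithelial ones reached at most 0.140 FPKM, endothelial 0.239, neural 0.341, muscle 1.39 and immune 2.16. Most of the immune sum was Cd68, the only one of these markers to pass the filter. It was at 1.65, 1.63 and 2.13 FPKM in control and at 1.02, 1.54 and 1.63 FPKM in NNMT libraries. The muscle gene Ckm was at 1.02 FPKM in Ctrl replicate 1 and at 0 and 0.0223 FPKM in the other control libraries. Of the 8 fibroblast markers, 5 were higher in NNMT cells, among them the collagen genes Col1a1 and Col1a2 that make up most of the sum. Thy1 was 2.14-fold lower and Vim 1.45-fold lower, and Pdgfra was not called. These markers moved with the groups, and their part in the results below was not tested.

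Most imprinted genes lie in clusters governed by an imprinting control region, a stretch of DNA that is methylated on the copy from 1 parent. The mark is set in the germ line and is kept through cell division by DNMT1, its partner UHRF1 and the ZFP57 and TRIM28 proteins. Many paternally expressed genes promote fetal growth and many maternally expressed genes restrain it. Several clusters pair a protein gene with a long noncoding RNA expressed from the other parental chromosome. The FPKM of a gene sums both alleles, so neither allelic expression nor methylation was measured here.

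Among the 18 tested genes, 15 differed between the groups at an adjusted p under 0.05 (limma on log2(FPKM + 1), Benjamini-Hochberg over all genes tested). Of them, 5 were higher in NNMT cells (H19, Plagl1, Grb10, Copg2 and Trappc9) and 10 were lower (Igf2, Dlk1, Meg3, Rian, Mirg, Peg3, Igf2r, Ndn, Peg12 and Ube3a). The background was high: 65.6% of all genes tested were called, 35.0% as higher and 30.6% as lower. After scaling the libraries by medians of ratios, 3 of the 18 were higher and 10 lower, and over all genes tested 3394 were higher and 3788 lower. The 6 libraries separated without overlap for 16 of the 18, against 69.9% of all genes tested. A call as lower with a log2 difference of -0.5 or below was reached by 6 of the 18 (Igf2, Dlk1, Peg3, Rian, Ndn and Mirg), against 9.38% of all genes tested. A call as higher with a log2 difference of at least 0.5 was reached by 1 of the 18 (H19), against 9.64% of all genes tested. With the filter lowered to a mean of 0.1 FPKM, 22 listed genes were tested, of which 5 were higher and 12 lower, against 58.1% of all genes called in either direction. The median log2 fold change was -0.24 over the 18 and 0.03 over all genes tested. In bulk RNA, fewer cells expressing a gene and less RNA per cell cannot be told apart.

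**Figure D1:**
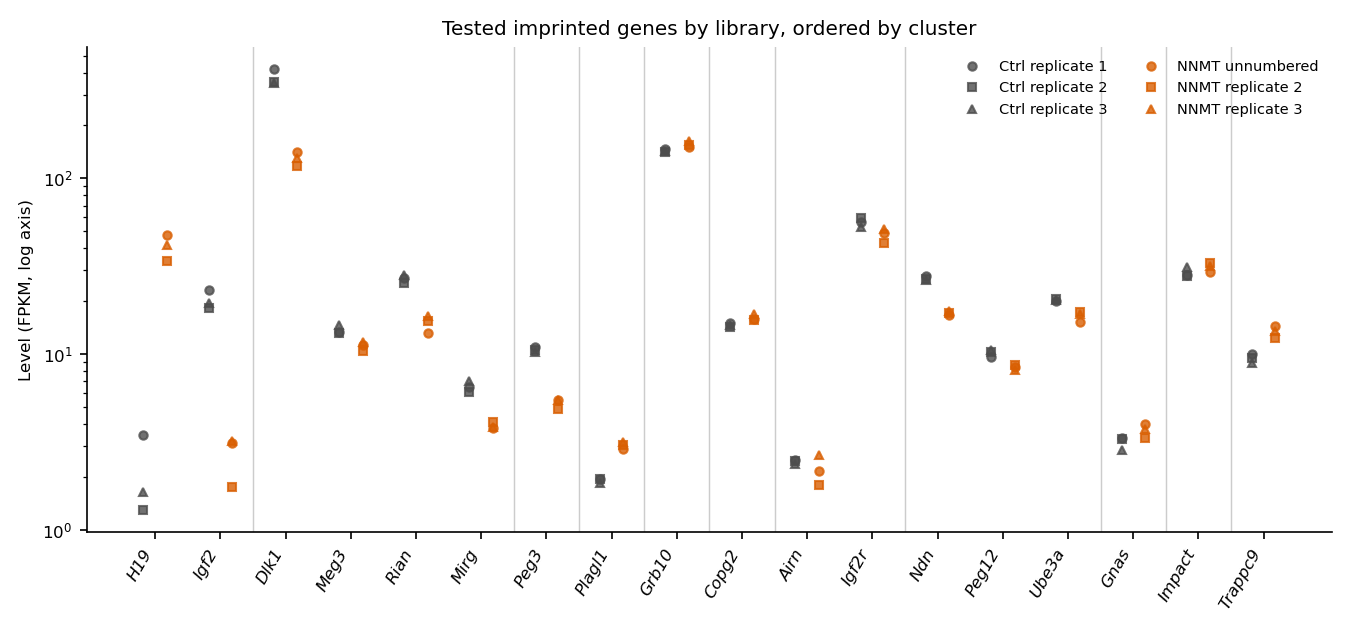
Level of each of the 18 tested imprinted genes in FPKM (log axis), grouped by cluster with vertical lines between clusters. Each point is 1 library, grey for control and orange for NNMT, and markers tell the libraries of a group apart. The unnumbered NNMT library has the marker of Ctrl replicate 1, which gives it no replicate number. H19 averages 2.13 FPKM in control libraries and 41.2 in NNMT libraries, Igf2 and Dlk1 lie well below their control values in all NNMT libraries, and Airn and Impact overlap between the groups.

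By usual parental expression, 8 of 22 paternally expressed genes were tested, 1 was higher and 5 were lower, with a median log2 fold change of -0.43. Of 12 maternally expressed genes, 7 were tested, 3 were higher and 4 were lower, with a median of -0.24. Of 4 genes with maternal expression in some tissues only, 3 were tested, 1 was higher and 1 was lower, with a median of 0.17. All these counts stand beside 35.0% higher and 30.6% lower over all genes tested. The difference between the parental classes was not tested.

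**Figure D2:**
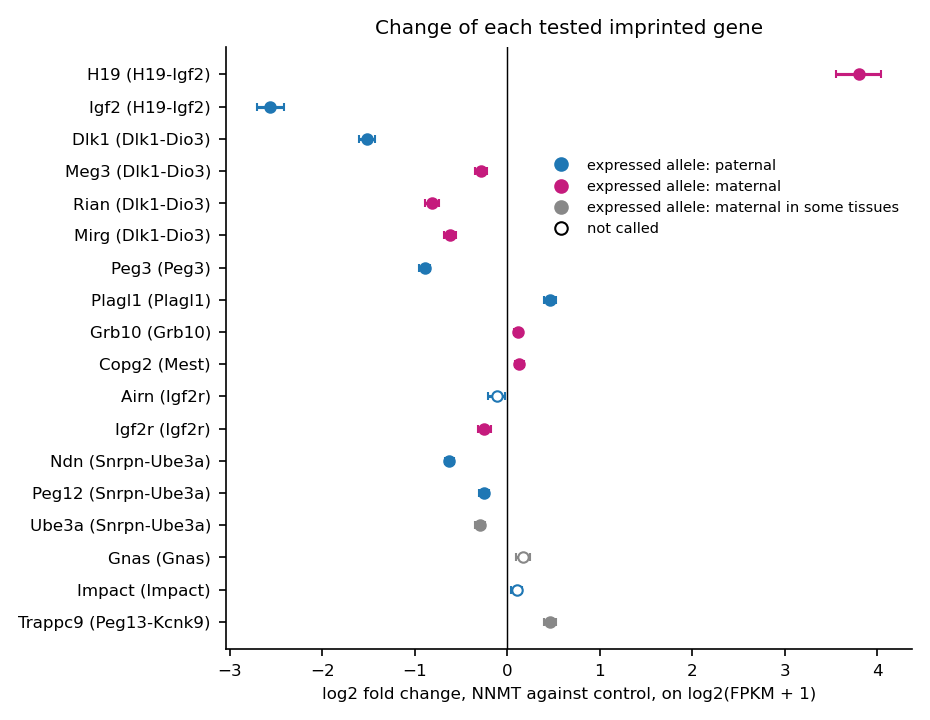
Difference of each tested imprinted gene between NNMT and control libraries on log2(FPKM + 1), with bars for the standard error and colours for the usually expressed allele. Open points were not called (Airn, Gnas and Impact). H19 at 3.80 and Igf2 at -2.56 are the farthest from 0, and both colours are found on both sides of 0.

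The H19 and Igf2 genes are neighbours on chromosome 7 that share enhancers. H19 makes a maternally expressed noncoding RNA that is the host of a miRNA, and Igf2 encodes a paternally expressed growth factor. Binding of CTCF to the control region between them on the maternal copy is known to keep the enhancers from Igf2. H19 lies at chr7:142575529-142578143 on the minus strand and Igf2 at chr7:142650766-142666816 on the same strand (GRCm38). The mature miRNAs that RefSeq places inside the 2 spans are shown because reads of the host transcripts are what moved. Capitals mark the seed, bases 2 to 8.
mmu-miR-675-5p, in H19: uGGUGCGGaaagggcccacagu
mmu-miR-675-3p, in H19: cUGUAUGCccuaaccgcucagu
mmu-miR-483-5p, in Igf2: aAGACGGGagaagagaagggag
mmu-miR-483-3p, in Igf2: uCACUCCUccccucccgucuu
The 4 seeds differ from each other. The table describes genes and not mature miRNAs, so miRNA levels are not analysed here.

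H19 was at 3.47, 1.29 and 1.63 FPKM in the control libraries and at 47.9, 33.7 and 42.0 FPKM in the NNMT libraries. Every NNMT library was above every control library, and Ctrl replicate 1 held the highest control value. The means were 2.13 ± 1.17 and 41.2 ± 7.12 FPKM (SD, n = 3 each), a 19.3-fold higher level from 503 and 10587 reads. On the log2(FPKM + 1) scale the difference was 3.80 (SE 0.24, limma adjusted p = 4.54e-06).

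Igf2 was at 23.3, 18.4 and 19.5 FPKM in the control libraries and at 3.10, 1.74 and 3.18 FPKM in the NNMT libraries. The groups were far apart, with all NNMT libraries low. The means were 20.4 ± 2.56 and 2.68 ± 0.812 FPKM (SD, n = 3 each), a 7.62-fold lower level in NNMT cells, with a log2 difference of -2.56 (SE 0.147, limma adjusted p = 2.61e-07). The antisense gene Igf2os overlaps Igf2 on the other strand. It averaged 0.665 FPKM in control and 0.0822 FPKM in NNMT libraries, and whether reads were counted by strand is not known here.

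The order of the pair thus turned over. Igf2 exceeded H19 by 6.70, 14.2 and 12.0 times in the control libraries. H19 exceeded Igf2 by 15.4, 19.4 and 13.2 times in the NNMT libraries. The difference of log2(H19 + 1) and log2(Igf2 + 1) went from -2.83 ± 0.340 to 3.53 ± 0.155 (SD, n = 3 each), a shift of 6.36 (exact two-sided permutation p = 0.1, the smallest that 3 against 3 allows). Among 14 other tested genes within 1 Mb of the pair, 6 were higher, 2 were lower and the median log2 fold change was 0.11. That made 57.1% called, against 65.6% of all genes tested. Other genes here are those outside the 38 listed, so some are imprinted themselves. Cd81, Tssc4, Nap1l4 and Tnfrsf23 are in a further list of imprinted genes given below. The actin-binding protein gene Lsp1 stood at 1.32 and Mrpl23, a mitochondrial ribosomal protein gene on the far side of H19 from Igf2, at 0.18. The range over the 14 was -0.70 to 1.32, and neither H19 nor Igf2 fell within it.

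RefSeq lists 4 promoter windows for Igf2, each with 250 bases before and 50 after the start. The window shown was chosen because it alone of the 4 holds the word TGCCGC, which ZFP57 binds when methylated. Capitals mark the word, here on the reverse strand of the text, in a window with 14 CpG.
Igf2 promoter, chr7:142661222-142661521, minus strand, GRCm38.p6: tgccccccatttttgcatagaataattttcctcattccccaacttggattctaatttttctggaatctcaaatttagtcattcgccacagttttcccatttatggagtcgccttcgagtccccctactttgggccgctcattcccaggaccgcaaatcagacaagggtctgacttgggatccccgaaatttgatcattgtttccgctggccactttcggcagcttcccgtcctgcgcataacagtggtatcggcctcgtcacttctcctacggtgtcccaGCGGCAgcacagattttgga

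The Dlk1-Dio3 cluster on chromosome 12 holds paternally expressed protein genes and a long maternally expressed noncoding stretch. Dlk1 encodes a transmembrane protein of the Notch ligand family that restrains fat cell formation, and 3T3 sublines are a classic system for studying it. Meg3, Rian and Mirg are noncoding RNAs in the same orientation. Rian is a host of C/D box snoRNAs and miRNAs, and Mirg is a host of miRNAs. Rtl1, a protein gene derived from a retrotransposon, lies opposite to miRNAs that are antisense to it.

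Dlk1, at chr12:109452823-109463336 on the plus strand, was at 419, 351 and 351 FPKM in control and at 142, 117 and 131 FPKM in NNMT libraries. It had the highest FPKM of the 18 genes in control libraries, and there was no overlap between the groups. The means were 374 ± 39.1 and 130 ± 12.3 FPKM (SD, n = 3 each), 2.87-fold lower in NNMT cells, with a log2 difference of -1.51 (SE 0.083, limma adjusted p = 1.83e-07).

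Rian, at chr12:109603940-109661716, was at 27.2, 25.5 and 28.3 FPKM in control and at 13.1, 15.4 and 16.4 FPKM in NNMT libraries. The groups did not overlap, and the level was 1.80-fold lower in NNMT cells (log2 difference -0.81, SE 0.0751, limma adjusted p = 6.55e-06). Mirg, at chr12:109729764-109749460, was at 6.49, 6.06 and 7.06 FPKM in control and at 3.79, 4.12 and 3.85 FPKM in NNMT libraries. It too was low in every NNMT library, by 1.67-fold (log2 difference -0.61, SE 0.0657, limma adjusted p = 1.91e-05).

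Meg3, at chr12:109541001-109571726, was at 13.4, 13.1 and 14.6 FPKM in control and at 11.2, 10.3 and 11.7 FPKM in NNMT libraries. The groups did not overlap but lay closer, at a 1.23-fold lower level (log2 difference -0.28, SE 0.0606, limma adjusted p = 0.00208). Dlk1 exceeded Meg3 by 31.3, 26.7 and 24.1 times in control and by 12.7, 11.3 and 11.2 times in NNMT libraries. The difference of log2(Meg3 + 1) and log2(Dlk1 + 1) shifted by 1.23 (exact two-sided permutation p = 0.1, the smallest possible). In this cluster the paternally expressed Dlk1 and the maternally expressed RNAs were all lower in NNMT cells, unlike the opposite directions of H19 and Igf2.

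Rtl1 was under the expression filter, a mean of 1 FPKM over the 6 libraries. It was at 0.397, 0.440 and 0.363 FPKM in control and at 0.255, 0.245 and 0.251 FPKM in NNMT libraries, from 268 and 178 reads, 1.60-fold lower. With no filter its limma adjusted p was 0.0368, and it was 0.0922 without Ctrl replicate 2, 0.0707 without Ctrl replicate 1, 0.0727 without NNMT replicate 2, 0.0768 without NNMT replicate 3 and 0.0728 without the unnumbered NNMT library. The miRNA genes on its other strand overlap it, and the reads of the 2 strands may not have been separated.

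Among 12 other tested genes within 1 Mb of the cluster, 1 was higher and 4 were lower. The 12 include Begain and Wars, which are in the further list of imprinted genes below. That made 41.7% called, against 65.6% of all genes tested, and the median log2 fold change was -0.17. The median over chromosome 12 was also -0.17. The lowest of the 12 was Evl at -0.61, an actin regulator gene. Dlk1 and Rian lay below the range of their neighbours, Mirg was level with Evl and Meg3 lay within the range.

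RefSeq placed 26 mature miRNAs from 14 hairpins inside Mirg, 6 from 3 hairpins inside Rian, 3 inside Meg3 and 11 from 6 hairpins opposite Rtl1. Examples are shown with the seed in capitals. Those of Rian, Mirg and Meg3 lie within the spans of genes that were lower in NNMT cells. Those opposite Rtl1 belong to a transcript of the other strand, whose reads may or may not be part of the Rtl1 value.
mmu-miR-370-3p, in Rian: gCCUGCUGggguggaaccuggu
mmu-miR-341-3p, in Rian: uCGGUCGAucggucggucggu
mmu-miR-154-5p, in Mirg: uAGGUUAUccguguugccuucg
mmu-miR-134-5p, in Mirg: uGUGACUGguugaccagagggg
mmu-miR-410-3p, in Mirg: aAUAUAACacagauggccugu
mmu-miR-770-5p, in Meg3: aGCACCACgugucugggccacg
mmu-miR-127-3p, opposite Rtl1: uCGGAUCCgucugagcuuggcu
mmu-miR-433-3p, opposite Rtl1: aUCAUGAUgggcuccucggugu
The 26 miRNAs of Mirg have 25 different seeds. The only seed shared within the listed hosts is GGUUGCC, in mmu-miR-453 and mmu-miR-496a-5p.

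The promoter windows of Dlk1 and Meg3 are shown because both genes were lower in NNMT cells while their usual parental alleles differ. The Dlk1 window holds 9 CpG and no TGCCGC. The Meg3 window holds 13 CpG and 1 such word, again on the reverse strand and in capitals.
Dlk1 promoter, chr12:109452573-109452872, plus strand, GRCm38.p6: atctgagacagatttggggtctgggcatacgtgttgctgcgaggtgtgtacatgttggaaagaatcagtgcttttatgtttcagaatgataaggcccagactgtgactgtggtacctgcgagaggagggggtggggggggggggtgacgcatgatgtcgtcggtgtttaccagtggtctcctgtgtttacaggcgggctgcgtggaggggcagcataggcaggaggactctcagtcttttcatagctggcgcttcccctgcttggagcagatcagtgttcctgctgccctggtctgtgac
Meg3 promoter, chr12:109540746-109541045, plus strand, GRCm38.p6: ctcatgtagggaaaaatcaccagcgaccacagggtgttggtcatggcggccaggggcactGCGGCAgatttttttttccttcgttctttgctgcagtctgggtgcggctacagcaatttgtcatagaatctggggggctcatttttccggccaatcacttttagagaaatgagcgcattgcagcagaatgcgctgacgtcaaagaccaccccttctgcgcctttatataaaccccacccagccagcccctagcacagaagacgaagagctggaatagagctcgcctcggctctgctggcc

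Peg3 encodes a large zinc finger DNA-binding protein expressed from the paternal copy. It lies at chr7:6703892-6730431 on the minus strand and starts next to Usp29, a gene of the ubiquitin peptidase family that runs the other way. Peg3 was at 11.0, 10.5 and 10.3 FPKM in control and at 5.46, 4.87 and 5.44 FPKM in NNMT libraries. The libraries were tight within groups and well apart between them. The level was 2.01-fold lower in NNMT cells (log2 difference -0.89, SE 0.0588, limma adjusted p = 6.68e-07). Usp29 had 8 reads in control and 4 in NNMT libraries, and the maternally expressed zinc finger gene Zim1 had 3 and 2, so that no fold is given. Of 6 other tested genes within 1 Mb, 1 was higher and 3 were lower, 66.7% called against 65.6% of all genes tested. They ranged from -0.55 to 0.18 on the log2 scale, and Peg3 lay below that range. The promoter windows of Peg3 and Usp29 overlap, and that of Peg3 is shown for this shared start. It holds 13 CpG, no TGCCGC and 1 GGGGCCCC, the word bound by PLAGL1. No letters are in capitals, since only TGCCGC is marked.
Peg3 promoter, chr7:6730370-6730669, minus strand, GRCm38.p6: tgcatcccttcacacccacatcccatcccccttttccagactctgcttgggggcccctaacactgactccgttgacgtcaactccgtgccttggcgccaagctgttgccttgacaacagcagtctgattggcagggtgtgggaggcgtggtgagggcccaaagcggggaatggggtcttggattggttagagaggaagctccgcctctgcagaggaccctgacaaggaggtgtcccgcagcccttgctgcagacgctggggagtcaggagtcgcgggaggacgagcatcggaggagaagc

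Plagl1 encodes a zinc finger transcription factor that binds a GC-rich word and is expressed from the paternal copy. In mice PLAGL1 is known to act on other imprinted genes. It lies at chr10:13060504-13131694 on the plus strand. Plagl1 was at 1.94, 1.95 and 1.84 FPKM in control and at 2.86, 3.01 and 3.13 FPKM in NNMT libraries. All NNMT libraries were higher, by 1.57-fold (log2 difference 0.46, SE 0.0636, limma adjusted p = 1.15e-04). It was the only paternally expressed gene of the 8 tested that was called higher. Its promoter window is shown for that reason and holds 26 CpG and 1 TGCCGC word, on the reverse strand in capitals.
Plagl1 promoter, chr10:13090582-13090881, plus strand, GRCm38.p6: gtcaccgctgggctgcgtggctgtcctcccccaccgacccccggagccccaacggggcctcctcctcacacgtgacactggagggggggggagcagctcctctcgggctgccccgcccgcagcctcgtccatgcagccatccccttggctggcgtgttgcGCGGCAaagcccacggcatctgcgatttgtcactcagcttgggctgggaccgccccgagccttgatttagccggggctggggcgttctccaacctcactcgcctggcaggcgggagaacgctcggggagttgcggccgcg

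Over the promoter windows, 29 of the 38 genes matched RefSeq entries with 41 windows of 300 bases in all. The word TGCCGC, searched on both strands, was in 11 of these 41 windows (26.8%) and in 11.6% of all 32851 windows. The word GGGGCCCC was in 3 of 41 (7.32%) and in 1.08% of all, and 2 of the 3 are the overlapping windows of Peg3 and Usp29, which hold the same site. The word GGNGGCAG, the core of the CTCF sites in the H19 control region, was in 7 of 41 (17.1%) and in 12.6% of all. The windows of the imprinted genes had a median of 15 CpG, against 7 over all windows, so that base composition differs between the 2 sets. The reverse complement of TGCCGC lies inside GGNGGCAG where N is C, so these matches can be the same bases, while TGCCGC and GGGGCCCC cannot overlap. Windows of the same or of neighbouring genes may overlap, as do 2 of Mest that hold TGCCGC, and a match is only a match of letters.

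The Snrpn-Ube3a cluster on chromosome 7 is the mouse counterpart of the human Prader-Willi and Angelman region. Ndn encodes necdin, a MAGE family protein that restrains cell proliferation, and is paternally expressed like Mkrn3, Magel2 and Peg12. Ndn was at 27.9, 26.7 and 26.2 FPKM in control and at 16.7, 17.0 and 17.6 FPKM in NNMT libraries. The spread within each group was small beside the gap, and the level was 1.57-fold lower in NNMT cells (log2 difference -0.62, SE 0.0472, limma adjusted p = 1.65e-06).

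Mkrn3 encodes a makorin ring finger protein, known in humans as a brake on puberty. It was under the filter, at 1.10, 1.09 and 1.26 FPKM in control and at 0.363, 0.300 and 0.443 FPKM in NNMT libraries, from 305 and 105 reads. No library overlapped, and the level was 3.12-fold lower in NNMT cells. With no filter its limma adjusted p was 3.58e-04 and it stayed under 0.05 when any library was left out.

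Peg12, a Frat family gene, was at 9.66, 10.2 and 10.5 FPKM in control and at 8.45, 8.70 and 8.06 FPKM in NNMT libraries, 1.21-fold lower (log2 difference -0.25, SE 0.0545, limma adjusted p = 0.00253). Ube3a encodes a ubiquitin ligase whose imprinting is a feature of neurons, both copies being active in most other cells. It was at 20.1, 20.5 and 20.4 FPKM in control and at 15.2, 17.4 and 16.8 FPKM in NNMT libraries. The groups did not overlap, at a 1.23-fold lower level (log2 difference -0.29, SE 0.0553, limma adjusted p = 9.86e-04). The Ube3a antisense host Snhg14 overlaps it and averaged 3.14 FPKM in control and 2.37 FPKM in NNMT libraries. Magel2 had 0 reads in all 6 libraries, which allows at most 0.0205 FPKM in any library (3 reads). The 3 tested neighbours of the cluster were also lower: Gm38393 by a log2 difference of -0.26, Snhg14 by -0.30 and Atp10a by -0.80. Of all genes tested, 30.6% were lower. These neighbours are not a set free of imprinting: Snhg14 is the antisense host named above, and Atp10a is in the further list of imprinted genes below.

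Igf2r encodes the receptor that takes IGF2 and mannose 6-phosphate proteins to lysosomes, expressed from the maternal copy. Airn is the paternally expressed noncoding RNA that crosses Igf2r on the other strand. Igf2r was at 56.6, 59.6 and 52.8 FPKM in control and at 48.6, 42.6 and 51.2 FPKM in NNMT libraries. The highest NNMT value came close to the lowest control value without overlap. The level was 1.19-fold lower (log2 difference -0.24, SE 0.0707, limma adjusted p = 0.0112), and the adjusted p was 0.0504 without Ctrl replicate 2. Airn was at 2.5, 2.45 and 2.37 FPKM in control and at 2.14, 1.79 and 2.66 FPKM in NNMT libraries. NNMT replicate 3 was above all control libraries and the others were below them (log2 difference -0.11, SE 0.0941, limma adjusted p = 0.313). Without NNMT replicate 3 the log2 difference was -0.21 with an adjusted p of 0.0472. Whether reads were counted by strand is not known here, so the Airn value may hold reads of the far higher Igf2r.

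Igf2r was not apart from the genes around it. Of 9 other tested genes within 1 Mb, 8 were lower and none was higher, against 30.6% lower and 35.0% higher of all genes tested. Their median log2 fold change was -0.39, while the median over chromosome 17 was -0.15. The lowest was Acat2, an acetyl-CoA acetyltransferase gene, at -1.05. Both Igf2r and Airn lay above the median of their neighbours.

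**Figure D3:**
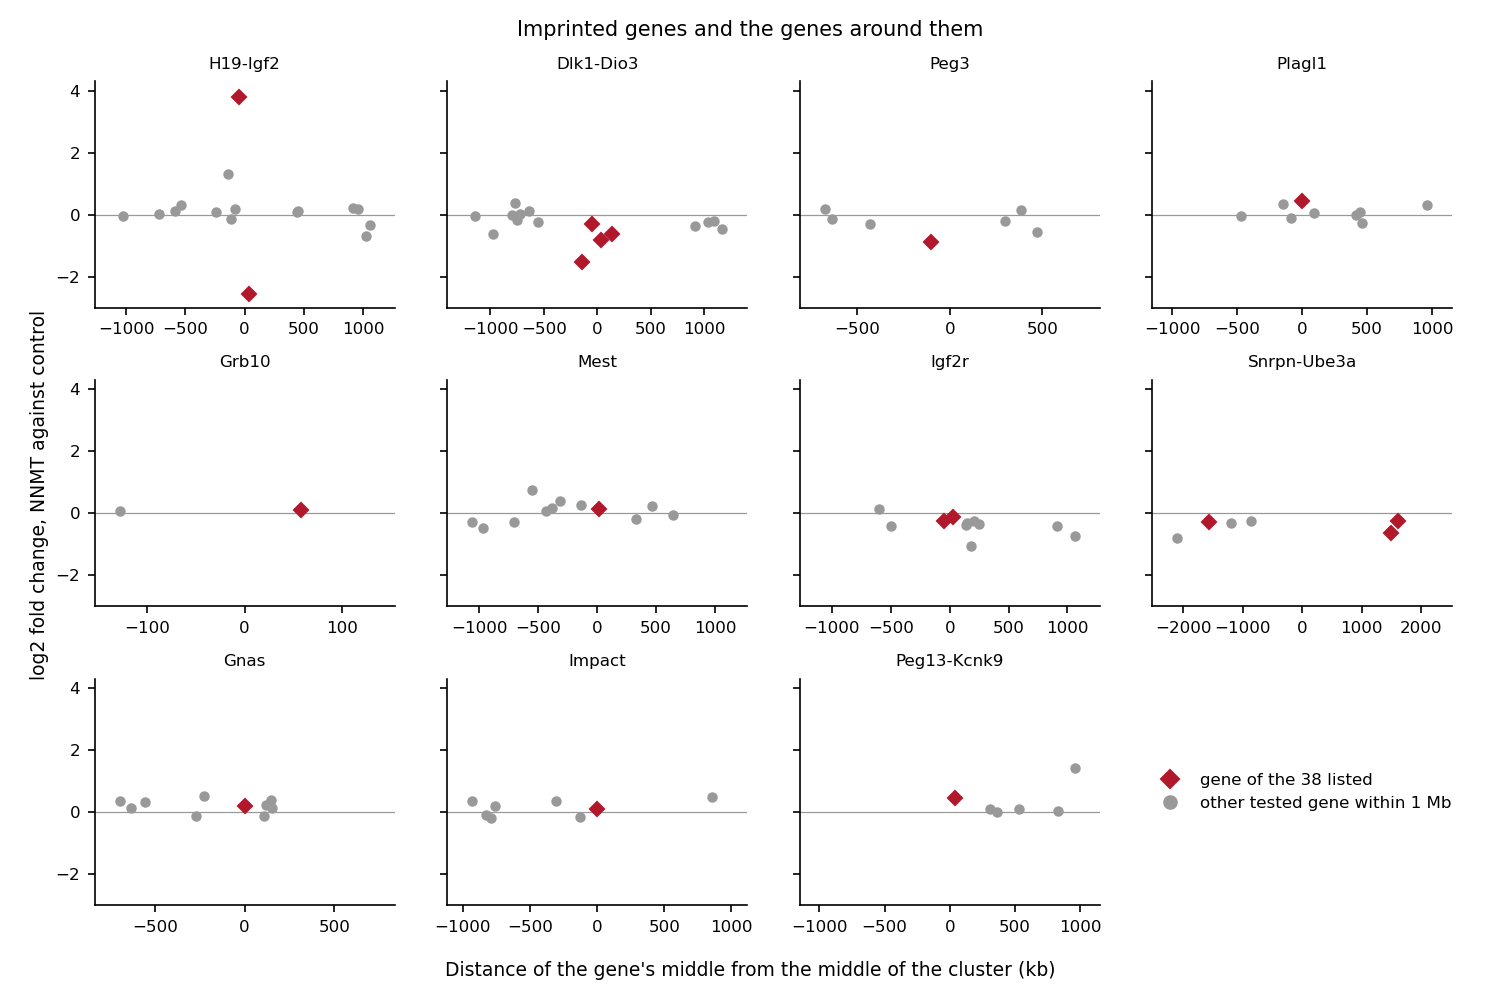
Log2 fold change of the tested genes of each cluster (red diamonds) and of the other tested genes within 1 Mb (grey circles) against distance in kb from the middle of the cluster, whose range differs between panels. H19 and Igf2 stand outside the range of their neighbours, Peg3 lies below its neighbours, and Igf2r and Airn lie among theirs. Grey circles include imprinted genes outside the 38 listed.

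Grb10 encodes an adaptor that restrains insulin and growth factor receptor signalling, expressed from the maternal copy outside the nervous system. It was at 146, 141 and 143 FPKM in control and at 150, 155 and 163 FPKM in NNMT libraries, next in level after Dlk1 in control libraries. The groups did not overlap, at a 1.09-fold higher level (log2 difference 0.12, SE 0.0471, limma adjusted p = 0.0451). The adjusted p was 0.0707 without Ctrl replicate 1, 0.140 without Ctrl replicate 2, 0.124 without Ctrl replicate 3 and 0.160 without NNMT replicate 3. Ddc, a decarboxylase gene next to it, had 2, 1 and 0 reads in the control libraries and 7, 3 and 6 in the NNMT libraries. The groups did not overlap, and with no filter its limma adjusted p was 0.0286, on a log2(FPKM + 1) difference of 0.08 that rests on these few reads.

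Copg2 encodes a coatomer subunit of transport vesicles and lies across from Mest, a paternally expressed hydrolase-like gene. Copg2 was at 15.0, 14.3 and 14.6 FPKM in control and at 15.9, 15.5 and 16.9 FPKM in NNMT libraries, without overlap. The level was 1.10-fold higher (log2 difference 0.13, SE 0.0499, limma adjusted p = 0.0397), and the adjusted p was 0.0556 without Ctrl replicate 1, 0.128 without Ctrl replicate 2, 0.0989 without Ctrl replicate 3 and 0.143 without NNMT replicate 3. After medians of ratios scaling it was 0.135 for Copg2 and 0.165 for Grb10, so that neither call held. Mest, with 32 and 42 reads, was at 0.104 to 0.148 FPKM in control and at 0.0970 to 0.176 FPKM in NNMT libraries, with overlap. Mest and Copg2 overlap on opposite strands, so the Mest value may hold reads of Copg2.

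Trappc9 encodes a subunit of a vesicle trafficking complex, with a maternal bias known in brain. It was at 10.0, 9.53 and 8.91 FPKM in control and at 14.5, 12.3 and 13.5 FPKM in NNMT libraries. Each NNMT library was above each control library, by 1.42-fold for the means (log2 difference 0.46, SE 0.0664, limma adjusted p = 1.49e-04). The potassium channel gene Kcnk9 of the same cluster had 0 reads, which allows at most 0.0077 FPKM in any library.

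Gnas encodes the stimulatory G protein alpha subunit and, from other promoters, further imprinted products that were not separated here. It was at 3.32, 3.30 and 2.86 FPKM in control and at 4.01, 3.32 and 3.75 FPKM in NNMT libraries. The closest libraries of the groups came near each other without overlap, and the gene was not called (log2 difference 0.17, SE 0.0765, limma adjusted p = 0.0679). The adjusted p was 0.0203 without NNMT replicate 2. Impact, an inhibitor of the amino acid sensor GCN2 that is paternally expressed, was at 28.2, 27.9 and 31.2 FPKM in control and at 29.4, 33.0 and 31.6 FPKM in NNMT libraries, with overlap (log2 difference 0.10, SE 0.0598, limma adjusted p = 0.151). Its adjusted p was 0.0427 without the unnumbered NNMT library.

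The other listed genes were under the filter. Nnat, which encodes the small membrane protein neuronatin, had 99 reads in each group and was at 0.480 to 0.887 FPKM in control and at 0.469 to 0.759 FPKM in NNMT libraries, with overlap. Blcap overlaps Nnat on the other strand and averaged 20.5 FPKM in control and 22.0 FPKM in NNMT libraries. The Nnat value may hold reads of Blcap, since counting by strand is not known. Kcnq1ot1, the paternally expressed noncoding RNA that silences its cluster on chromosome 7, had 495 and 533 reads and stayed between 0.0385 and 0.0700 FPKM in all libraries. The other listed genes of its cluster, all maternally expressed, were hardly detected. Cdkn1c, a cyclin-dependent kinase inhibitor gene, had 1 read in each group, and the transporter gene Slc22a18 had 0 and 1. Phlda2, a growth-restraining placental gene, and Ascl2, a trophoblast transcription factor gene, had 0 reads, which allows at most 0.125 and 0.0590 FPKM in any library.

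Peg10, derived from a retrotransposon, had 1 and 0 reads, and its neighbour Sgce, the epsilon sarcoglycan gene, had 6 and 0. Rasgrf1, a Ras exchange factor gene, had 4 and 1. The nucleosome assembly protein-like gene Nap1l5 and the zinc finger gene Zdbf2 had 0 reads, which allows at most 0.0514 and 0.0075 FPKM. In all, 6 listed genes had 0 reads and 8 had from 1 to 30. Of the genes with reads among these 14, Ddc separated between the groups, and the others overlapped, with no difference detectable at this depth.

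Genes that set, keep or read imprints and other methylation and chromatin genes were examined from a list of 30, of which 26 were tested. Of those, 4 rose and 14 fell in the NNMT group, against 35.0% higher and 30.6% lower of all genes tested. That made 69.2% called against 65.6% of all genes tested, with a median log2 fold change of -0.18. Those with the smallest adjusted p were mostly lower. Atrx, a chromatin remodeller gene on the X chromosome, was at 17.1, 17.5 and 17.6 FPKM in control and at 9.50, 9.64 and 10.5 FPKM in NNMT libraries (log2 difference -0.76, limma adjusted p = 8.15e-07). Uhrf1, whose protein brings DNMT1 to replicated DNA, averaged 98.5 ± 1.95 and 62.4 ± 4.24 FPKM (SD, n = 3 each, limma adjusted p = 3.21e-06). Trim28, the corepressor that ZFP57 recruits, averaged 175 ± 2.83 and 133 ± 2.99 FPKM (limma adjusted p = 1.99e-05).

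Rbbp4, a histone-binding subunit of several chromatin complexes, was 1.55-fold lower (limma adjusted p = 3.30e-06), and Arid4a, an Rb-binding protein gene, was 1.65-fold lower (limma adjusted p = 5.37e-05). Dnmt3l, the cofactor for setting imprints in germ cells, was at 1.11, 1.09 and 1.56 FPKM in control and at 3.18, 3.49 and 3.49 FPKM in NNMT libraries, 2.70-fold higher (limma adjusted p = 6.23e-06). Dnmt1, the maintenance methyltransferase, was at 54.9, 56.8 and 53.4 FPKM in control and at 56.1, 56.8 and 54.3 FPKM in NNMT libraries (log2 difference 0.02, limma adjusted p = 0.734). Zfp57 was at 23.5, 23.5 and 27.2 FPKM against 23.3, 24.4 and 24.1 FPKM (limma adjusted p = 0.549), and Ctcf was at 28.9, 30.2 and 29.2 FPKM against 28.7, 31.0 and 28.8 FPKM (limma adjusted p = 0.984). Dnmt1, Zfp57 and Ctcf, chosen after their values were seen, overlapped between the groups.

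A further list of 55 imprinted genes had 49 in the table and 29 tested. Of these, 10 were higher and 9 were lower, 65.5% called against 65.6% of all genes tested. The median log2 fold change was 0.04, against 0.03 over all genes tested. The 6 with the smallest adjusted p include Asb4, an ankyrin repeat gene of the Peg10 and Sgce region. It was at 11.1, 8.97 and 10.6 FPKM in control and at 1.58, 1.38 and 1.78 FPKM in NNMT libraries, 6.47-fold lower (log2 difference -2.12, limma adjusted p = 2.67e-08). Atp10a, a lipid flippase gene next to Ube3a, was 1.79-fold lower (limma adjusted p = 3.34e-07).

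Adam23, a cell adhesion protein gene near Zdbf2, was at 6.78, 5.83 and 5.87 FPKM in control and at 15.3, 11.7 and 15.0 FPKM in NNMT libraries, 2.27-fold higher (limma adjusted p = 5.36e-06). H13, a signal peptide peptidase gene, was 1.41-fold higher (limma adjusted p = 1.10e-05), while Mcts2, a retrogene inside an H13 intron, was 1.57-fold lower (limma adjusted p = 4.55e-05). Slc38a4, an amino acid transporter gene, was 1.35-fold lower (limma adjusted p = 1.07e-04).

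**Figure D4:**
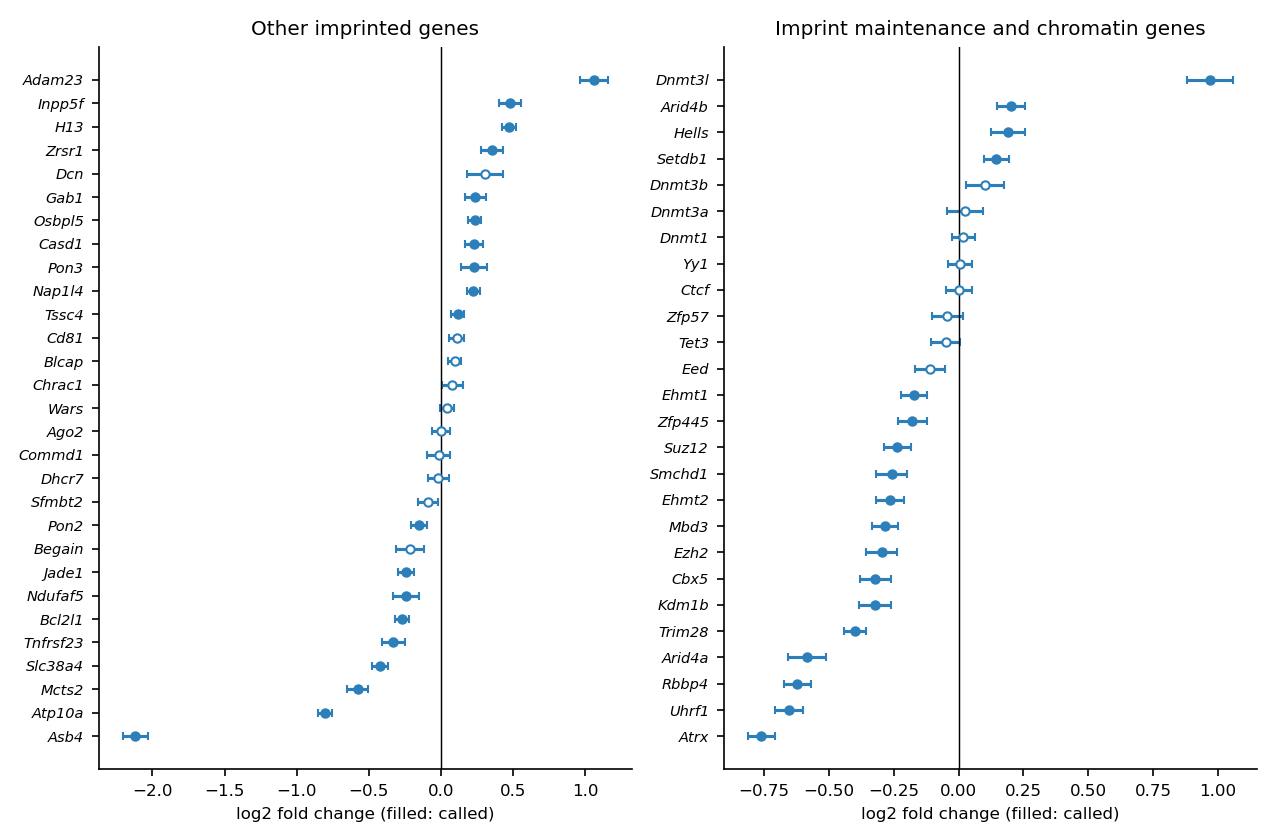
Log2 fold change on log2(FPKM + 1), with standard error, of the 29 tested genes of a further list of imprinted genes (left) and of the 26 tested imprint, methylation and chromatin genes (right), filled where called. Asb4 and Adam23 mark the ends of the left panel at -2.12 and 1.06, and Dnmt3l stands alone at the upper end of the right panel at 0.97.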

How the data were processed

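Gene expression was measured by RNA sequencing of 6 libraries. Per the submitters' processing notes, CASAVA, STAR 2.5 and the mm10 build were used. How reads were counted, with which annotation and whether by strand, is unknown here. As deposited by the authors, a single table holds all values. Its header names no unit, and the deposited values are read as FPKM. The reading rests on recovery: of 20528 rows above 0, the length of the longest transcript (GENCODE M21, GRCm38) gave whole reads, to within 0.01 of a read, for 14597, another transcript for 1119 and the union of exons for 12. For the other 4800 the shortest length that gives whole reads was used, so those reads are the smallest that match the values and do not bear on the unit. Reads printed for Zim1, Cdkn1c, Mest, Rtl1 and Kcnq1ot1 are of that kind. Recovered reads summed to 99.86% of the implied totals. Symbols were paired for 34490 of 35275 rows. Of the 6 columns, 5 carry a replicate number and 1, used as the remaining NNMT library, does not.

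A gene was tested where its 6 libraries averaged 1 FPKM or more, using limma 3.58.1 in R 4.3.3 on log2(FPKM + 1), which understates the change of low genes. The test was two-sided with trended, robust moderation, Benjamini-Hochberg adjustment over all genes tested and a threshold of 0.05. The procedure was also run on simulated data with the same spread set for both groups, which does not show its rate of false calls here. Folds are ratios of group mean FPKM, given where each group had at least 10 reads. Floors for 0 reads are 3 reads per library and cover counting error only. Libraries of a group differed by more than counting noise, so none was treated as a copy. P-values measure the spread between these libraries, which may be technical.

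The listed genes and the gene lists were chosen with earlier results of these data known. All 38 listed genes are accounted for, and of the 2 other lists the 6 tested genes with the smallest adjusted p are named. Sequences are from RefSeq (GRCm38.p6). Alternatives covered scaling, filters, pseudocounts, the variance model, voom on recovered reads, each library left out and a replicate block.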

Additional observations from a re-analysis of the deposited data

How the results depend on the processing

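The directions and calls of Dlk1, H19, Igf2, Meg3, Mirg, Ndn, Peg12, Peg3, Plagl1, Rian, Trappc9 and Ube3a were kept under every alternative that tested them (a filter at 5 FPKM left out Plagl1), and no tested imprinted gene reversed. The replicate block, whose limit is given below, is among these alternatives. Listed genes called higher, 5 in the report, came to 3 after medians of ratios scaling and 3 at an adjusted p under 0.01, and to between 3 and 6 when 1 library was left out. Those called lower, 10 in the report, came to between 9 and 11 when 1 library was left out. Their median log2 fold change of -0.24 was -0.15 with a pseudocount of 10, -0.0194 with no filter (over 31 genes, many of few reads), and from -0.26 to -0.20 when 1 library was left out. Gnas was called by voom on recovered reads (adjusted p = 0.0498).

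For neighbours, the median near H19 and Igf2 was 0.0666 after medians of ratios scaling, 0.0791 with a pseudocount of 10 and 0.0901 to 0.143 with 1 library left out. Near Dlk1 it was -0.21 after medians of ratios scaling, -0.21 with a pseudocount of 0.1, -0.0502 with a pseudocount of 10 and -0.18 to -0.14 with 1 library left out. Near Peg3 it was -0.0737 with a pseudocount of 10 and -0.20 to -0.12 with 1 library left out, and near Igf2r -0.23 and -0.39 to -0.30. The cause of these moves was not tested, beyond a pseudocount of 10 shrinking differences by construction.

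Same-numbered libraries deviated together with a correlation of 0.21 (number 2) and 0.11 (number 3), and Ctrl replicate 3 and NNMT replicate 2 also reached 0.21. The unnumbered NNMT library reached 0.31 with Ctrl replicate 1, but its column carries no number to pair it by, so whether numbers pair the libraries was not settled. With a replicate block over replicates 2 and 3, 5 listed genes were higher and 10 lower, with a median of -0.25, and over all genes 3910 were higher and 3199 lower. Of the genes under the filter, Mkrn3 had an adjusted p of 0.0626 and Rtl1 of 0.179 in that fit. With the filter, the limma adjusted p of Igf2 with this block was 1.25e-153, against 2.61e-07 over all 6 libraries. The block leaves too few libraries to gauge the spread of each gene by itself. Its calls and p-values therefore cannot be weighed like those of the other fits. Depth limits the 14 listed genes with at most 30 reads.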

Other observations

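From the further list of imprinted genes, 3 genes under the filter are described here and were chosen after their values were seen. Herc3, a ubiquitin ligase gene that contains the silent Nap1l5 on its other strand, was at 0.913, 0.999 and 1.19 FPKM in control libraries and at 0, 0.0239 and 0.0291 FPKM in NNMT libraries, from 509 and 9 reads. Htr2a, a serotonin receptor gene, was at 1.32, 1.12 and 1.17 FPKM in control and at 0.235, 0.381 and 0.296 FPKM in NNMT libraries, 3.94-fold lower. Cpa4, a carboxypeptidase gene of the Mest region, was at 0.118, 0.0938 and 0.115 FPKM in control and at 0.556, 0.424 and 0.482 FPKM in NNMT libraries, 4.47-fold higher. The groups did not overlap for any of the 3, and none was tested with the filter. Also under the filter and without overlap, from fewer reads in control and NNMT libraries, were Ano1 (5 and 40), Dact2 (1 and 16) and Ppp1r9a (25 and 3) of that list.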
